A study of Rattus norvegicus with 48 samples.

Results

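The subunit genes of oxidative phosphorylation were followed after a single oral dose of RDX, a nitramine explosive, in 2 tissues of the rat, the cerebral cortex and the liver. The animals were Sprague-Dawley males. Members were all probe sets (groups of array probes for a transcript) whose platform gene symbol named a subunit of complexes I to V, taken by symbol pattern and not by their values. The pattern matched 89 probe sets of 80 genes, out of 31042 probe sets tested and 14217 genes with a symbol. Complex I had 35 of these genes, complex II 4, complex III 8, complex IV 17 and complex V 16. Where a gene had several probe sets, the one with the highest mean in a tissue stood for it; 72 genes had 1 probe set, 8 had several, and the same probe set was chosen in both tissues for all 80. A further 7 probe sets paired with several symbols (among them those for Cox5a, Cox7a2, Uqcrb, Ndufs5 and Ndufa10) were left out.

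Rats received pure RDX in a gel capsule at 3 or 18 mg/kg, doses meant not to cause seizures, and tissue was taken at 0, 4, 24 or 48 h. With 3 arrays for each tissue at each dose and time, there were 16 groups and 48 arrays. No genetic change or second treatment is named, ages are not given, and there was no undosed group after 0 h. Each later group was therefore set against the 0 h group of its own dose and tissue. The labels leave unsaid if arrays of a group stand for separate animals, so p-values measure only the spread between these arrays. The neuron marker list had means of 10.03 to 10.46 on cortex arrays and 4.77 to 5.86 on liver arrays, and the hepatocyte list had 11.11 to 13.57 on liver arrays.

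Oxidative phosphorylation is the respiratory chain and ATP synthase of the mitochondrial inner membrane. Complexes I and II pass electrons from NADH and succinate to ubiquinone, complexes III and IV carry them on to oxygen, and complex V uses the resulting proton gradient to make ATP. Cortex neurons and hepatocytes both depend on it heavily. The members here are nuclear genes; the subunits that mitochondrial DNA encodes were not among them. The pattern also took in 3 genes that are not subunits in the strict sense, namely Atp5if1 (the inhibitor of ATP synthase), Cox7a2l (a factor in supercomplex assembly) and Cox6c-ps1 (a pseudogene). Many of these genes have processed pseudogenes, so a probe set may also read near-identical copies. In bulk tissue, fewer cells of a type and less RNA per cell cannot be told apart.

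Promoter sequences are shown first, for the members with the motif CGCATGCG and for Ndufs1. RefSeq promoter windows (rat build GRCr8) matched 71 of the 80 genes; Atp5pd, Cox4i2, Cox6a1, Cox6c, Cox6c-ps1, Cyc1, Ndufa8, Ndufb9 and Uqcr11 had none. The 250 bases upstream of each start were searched on both strands for CGCATGCG (the core letters bound by NRF1, a regulator of mitochondrial genes), CCGGAAG (the core of ETS factors such as GABP) and AAGATGGC (the core of YY1); the 50 bases after the start were left out. CGCATGCG was in 6 of 71 members (8.45%) and in 492 of all 33469 windows (1.47%). CCGGAAG was in 19 of 71 (26.8%) against 7.27% of all windows, and AAGATGGC in 2 of 71 (2.82%) against 1.63%. In all, 22 of 71 members (31.0%) held at least 1 of the 3 motifs, against 9.83% of all windows. No member window had overlapping matches to different motifs. The 6 members with CGCATGCG were Atp5mg, Atp5me, Atp5pf and Atp5po of complex V, Ndufa11 of complex I and Uqcrc1 of complex III. Their stretches of 80 bases follow with that of Ndufs1, whose only match was CCGGAAG; capitals mark the matched letters, read here on the gene's strand, and a match is a description of letters, not a measured site.
Atp5mg, chr8:54130578-54130657, minus strand: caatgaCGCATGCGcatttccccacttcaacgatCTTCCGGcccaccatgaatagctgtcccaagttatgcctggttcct
Atp5me, chr14:1464749-1464828, plus strand: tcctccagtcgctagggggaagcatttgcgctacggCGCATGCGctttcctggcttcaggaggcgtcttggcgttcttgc
Atp5pf, chr11:37375227-37375306, minus strand: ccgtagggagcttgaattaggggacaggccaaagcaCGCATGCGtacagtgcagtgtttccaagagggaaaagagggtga
Atp5po, chr11:44657498-44657577, minus strand: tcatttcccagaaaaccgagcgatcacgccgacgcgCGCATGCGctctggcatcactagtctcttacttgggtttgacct
Ndufa11, chr9:1637482-1637561, plus strand: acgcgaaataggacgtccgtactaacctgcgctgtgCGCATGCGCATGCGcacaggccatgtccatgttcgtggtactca
Uqcrc1, chr8:118468143-118468222, plus strand: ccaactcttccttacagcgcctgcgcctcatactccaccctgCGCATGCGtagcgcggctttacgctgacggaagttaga
Ndufs1, chr9:72073761-72073840, minus strand: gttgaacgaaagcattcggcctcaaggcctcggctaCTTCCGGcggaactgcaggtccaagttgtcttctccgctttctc
Atp5mg held both CGCATGCG (starting 244 bases before the start) and CCGGAAG (216 bases before it, here as its reverse complement). Atp5me and Atp5pf held all 3 motifs within their 250 bases, and of these the stretches shown include only CGCATGCG. Atp5mg and Ndufs1, both with the ETS core, had changes of opposite sign in cortex, as given below. They are among the 19 members with that core, of which only Ndufs1 was below 0 h at all times after 3 mg/kg and above it at all times after 18 mg/kg.

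Across the 6 cortex comparisons, no member passed the threshold (adjusted p of 0.05, limma, Benjamini-Hochberg over all 31042 probe sets). The members nonetheless lay mostly on the same side. At 3 mg/kg the median change over the 80 genes was 0.12, 0.30 and 0.26 (log2) at 4, 24 and 48 h, with 65, 75 and 72 genes above 0 h. At 18 mg/kg it was -0.16, -0.14 and -0.22, with 65, 72 and 69 genes below 0 h. Over all probe sets the medians of these 6 comparisons lay between -0.03 and 0.00. The share of all probe sets called was 0% at 4 h, 0.0741% at 24 h and 0% at 48 h after 3 mg/kg, and 0% at each time after 18 mg/kg, so a count of 0 members is near the background. Without adjustment, 6, 47 and 41 of the 80 members had p under 0.05 at 3 mg/kg, against 12.6%, 14.4% and 13% of all probe sets. At 18 mg/kg there were 17, 9 and 29, against 11%, 5.99% and 16.6%. With each array weighted by its estimated quality, an estimate that stopped before it converged, the counts of called members were 11, 39 and 38 at 3 mg/kg (15.9%, 12.3% and 18.7% of all probe sets were called with these weights). At 18 mg/kg they were 42, 0 and 41 (26.2%, 0% and 19.6% of all probe sets).

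**Figure D1:**
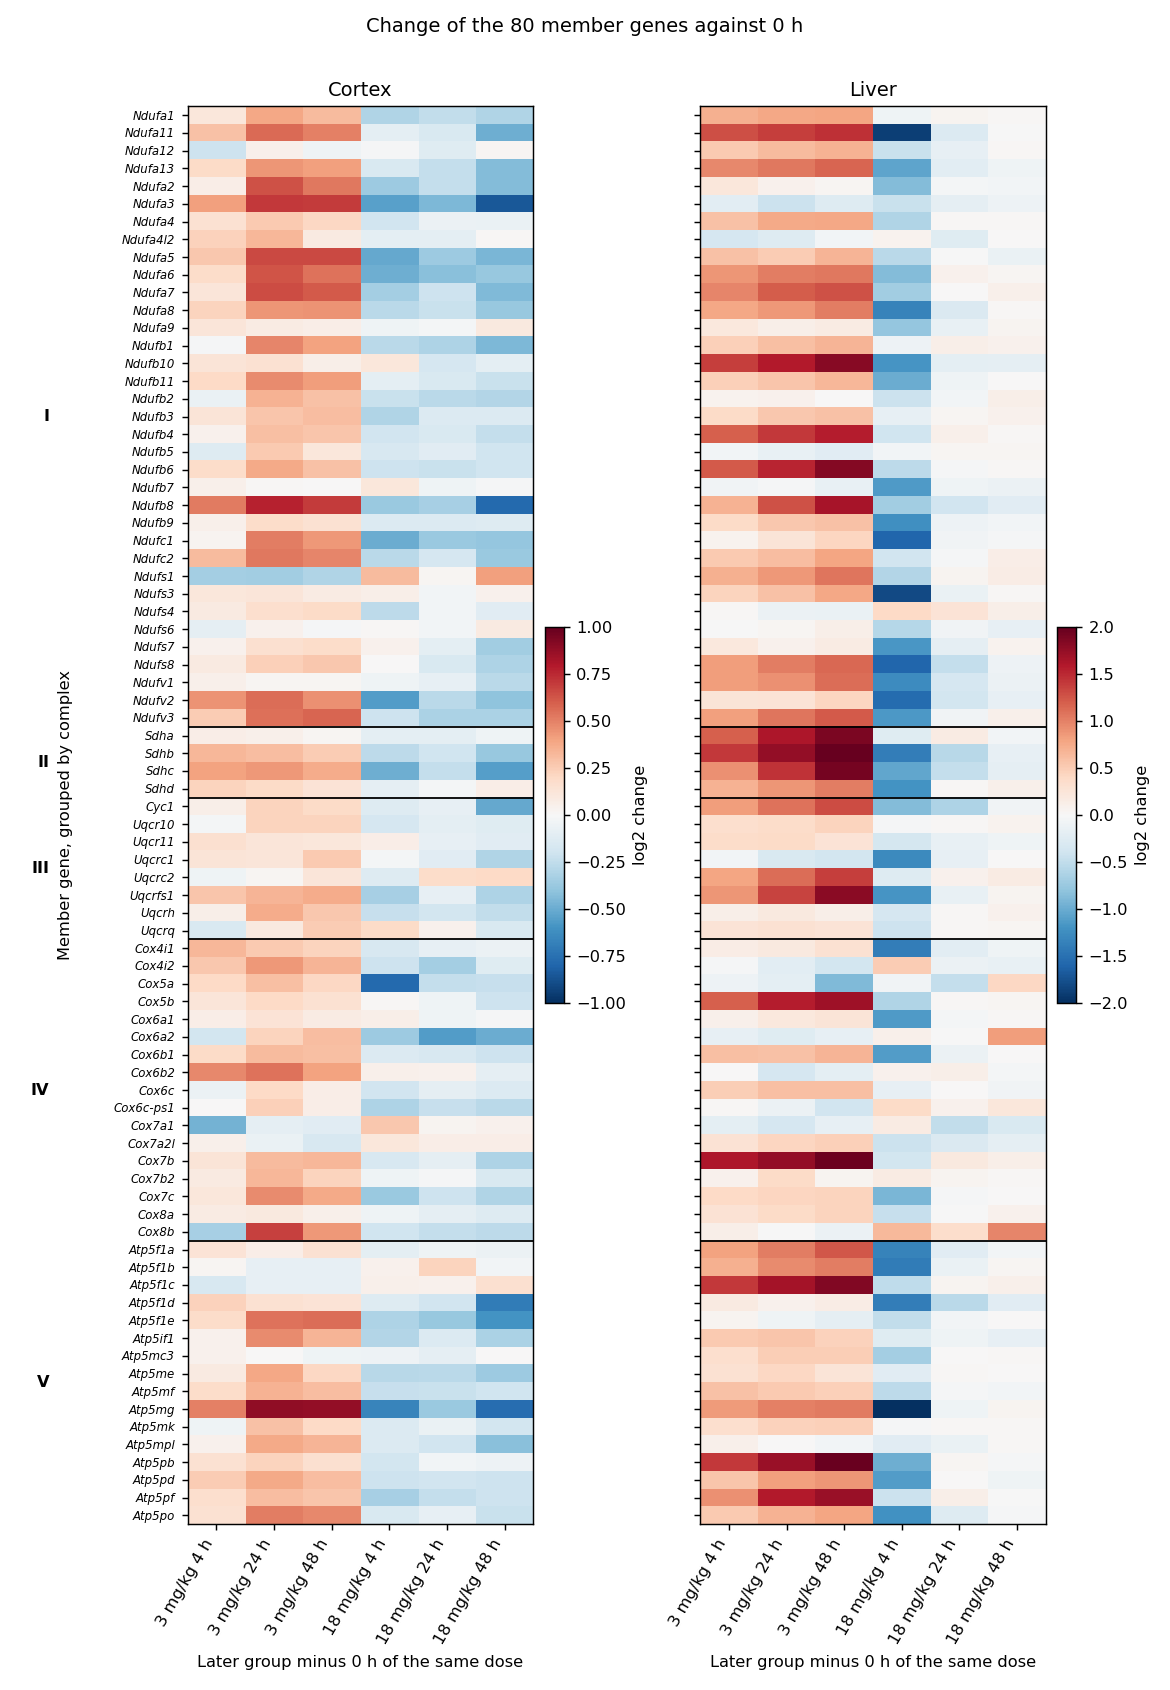
Log2 change of each of the 80 member genes (rows, by complex) in the 6 comparisons per tissue (columns); the colour scale spans -1 to 1 in cortex and -2 to 2 in liver, with values beyond it at the end colours. In cortex, 49 genes are above 0 h at all 3 times after 3 mg/kg and below it at all 3 times after 18 mg/kg. The share of all probe sets with this pattern is not given.

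The direction was shared by all 5 complexes. At 3 mg/kg and 24 h the median change was 0.35 for complex I, 0.25 for complex II, 0.17 for complex III, 0.26 for complex IV and 0.33 for complex V. At 18 mg/kg and 48 h the corresponding medians were -0.29, -0.21, -0.20, -0.15 and -0.21. In total 49 of 80 genes were above 0 h at all 3 times after 3 mg/kg and below it at all 3 times after 18 mg/kg, and these were 22 of 35 in complex I, 3 of 4 in complex II, 4 of 8 in complex III, 8 of 17 in complex IV and 12 of 16 in complex V. Only Ndufs1, Cox7a1 and Atp5f1c had the opposite signs at all 6 points. The 3 times of an arm share a 0 h group, so their signs are not separate evidence. The share of all probe sets with either pattern is not given, so these counts have no background beside them. The arms have separate 0 h groups, and these already differed: 69 of 80 members were higher in the 18 mg/kg than in the 3 mg/kg 0 h group, by a median of 0.17, with 0 members called (0% of all probe sets, smallest adjusted p 0.99) and 20 below 0.05 unadjusted (4.35% of all probe sets).

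Atp5mg, subunit g in the membrane part of ATP synthase, had the largest mean change in the 3 mg/kg arm. Its log2 levels were 11.77, 11.34 and 12.32 at 0 h, 12.76, 12.72 and 12.61 at 24 h and 12.62, 12.83 and 12.61 at 48 h. All later arrays at 24 and 48 h lay above all 3 at 0 h, and the differences were 0.89 ± 0.27 and 0.88 ± 0.27 (SE; adjusted p 0.17 and 0.28). In the 18 mg/kg arm the levels were 12.80, 12.76 and 11.83 at 0 h and 11.32, 12.09 and 11.69 at 48 h. There the third 0 h array was low and the groups overlapped, with a difference of -0.76 ± 0.27 (adjusted p 0.17).

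Among complex I genes, the accessory subunits Ndufa3 and Ndufb8 had the widest swing. Ndufa3 stood at 10.99, 10.83 and 11.39 at 0 h and 11.85, 11.77 and 11.71 at 24 h after 3 mg/kg, a difference of 0.71 ± 0.24 (adjusted p 0.21) with no overlap. After 18 mg/kg it stood at 11.78, 11.74 and 11.21 at 0 h and 10.46, 11.36 and 10.37 at 48 h, a difference of -0.85 ± 0.24 (adjusted p 0.12) in which the second array at 48 h overlapped 0 h. Ndufb8 changed by 0.77 ± 0.26 at 24 h after 3 mg/kg (adjusted p 0.21) and by -0.78 ± 0.26 at 48 h after 18 mg/kg (adjusted p 0.15). Ndufa2, another accessory subunit, had the smallest adjusted p of any member at 3 mg/kg, 0.075 at 24 h: its levels were 11.48, 11.33 and 11.64 at 0 h and 12.08, 12.16 and 12.12 at 24 h, 0.64 ± 0.14 higher without overlap.

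Ndufs1, the large iron-sulphur subunit of the complex I core, stood at 10.76, 10.71 and 10.40 at 0 h and 10.20, 10.22 and 10.43 at 24 h after 3 mg/kg. After 18 mg/kg it stood at 10.38, 10.29 and 10.56 at 0 h and 10.88, 10.61 and 10.98 at 48 h, every array at 48 h above 0 h. These differences of -0.35 ± 0.13 (adjusted p 0.25) and 0.41 ± 0.13 (adjusted p 0.14) ran against those of Ndufa3 and Ndufb8 on the same arrays.

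Averaged over the 3 later times, the extremes of complex III were Uqcrfs1 (0.33) and Uqcrc2 (0.03) at 3 mg/kg and Uqcrc2 (0.08) and Cyc1 (-0.24) at 18 mg/kg. Of complexes II and III, cytochrome c1 (Cyc1), the haem subunit that passes electrons to cytochrome c, came nearest to the threshold. It measured 11.39, 11.40 and 11.30 at 0 h and 10.80, 11.08 and 10.68 at 48 h after 18 mg/kg. All 3 later arrays were below all 3 at 0 h, and the difference was -0.51 ± 0.09 (adjusted p 0.062). Cyc1 changed by 0.22 ± 0.09 at 24 h after 3 mg/kg (adjusted p 0.29). Sdha, the flavoprotein that oxidises succinate, changed by at most 0.10 in size in the 6 comparisons, whereas its membrane anchor Sdhc changed by 0.43 ± 0.29 at 24 h after 3 mg/kg and -0.55 ± 0.29 at 48 h after 18 mg/kg (adjusted p 0.49 and 0.34).

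Within complex IV the highest and lowest mean changes at 3 mg/kg were those of Cox6b2 (0.47) and Cox7a1 (-0.22), and at 18 mg/kg those of Cox7a1 (0.11) and Cox6a2 (-0.47). Cox6b2, the form known from testis, read 5.66, 5.53 and 5.84 at 0 h and 6.14, 6.29 and 6.22 at 24 h after 3 mg/kg, higher on every array by 0.54 ± 0.12 (adjusted p 0.082). These low readings lay below or near the medians of all probe sets on those arrays (6.21 to 6.31). No detection call was used, so they may be close to background. Cox7a1 read 7.30, 7.43 and 6.77 at 0 h and 6.66, 6.84 and 6.60 at 4 h after 3 mg/kg, a difference of -0.47 ± 0.15 (adjusted p 0.34) with overlapping groups.

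Complex IV and V held members with small and with large differences. Cox4i1, a core-bound nuclear subunit of complex IV, changed by 0.26 at 24 h after 3 mg/kg and -0.06 at 48 h after 18 mg/kg, and Cox6a1 by 0.14 and -0.01. The alpha and beta subunits of the ATP synthase head, Atp5f1a and Atp5f1b, changed by 0.07 and -0.08 at 24 h after 3 mg/kg, and by -0.06 and -0.03 at 48 h after 18 mg/kg. The small head and stalk subunits Atp5f1e (epsilon) and Atp5f1d (delta) changed by -0.60 ± 0.15 and -0.70 ± 0.18 at 48 h after 18 mg/kg (adjusted p 0.10 each), with no overlap between groups for either.

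**Figure D2:**
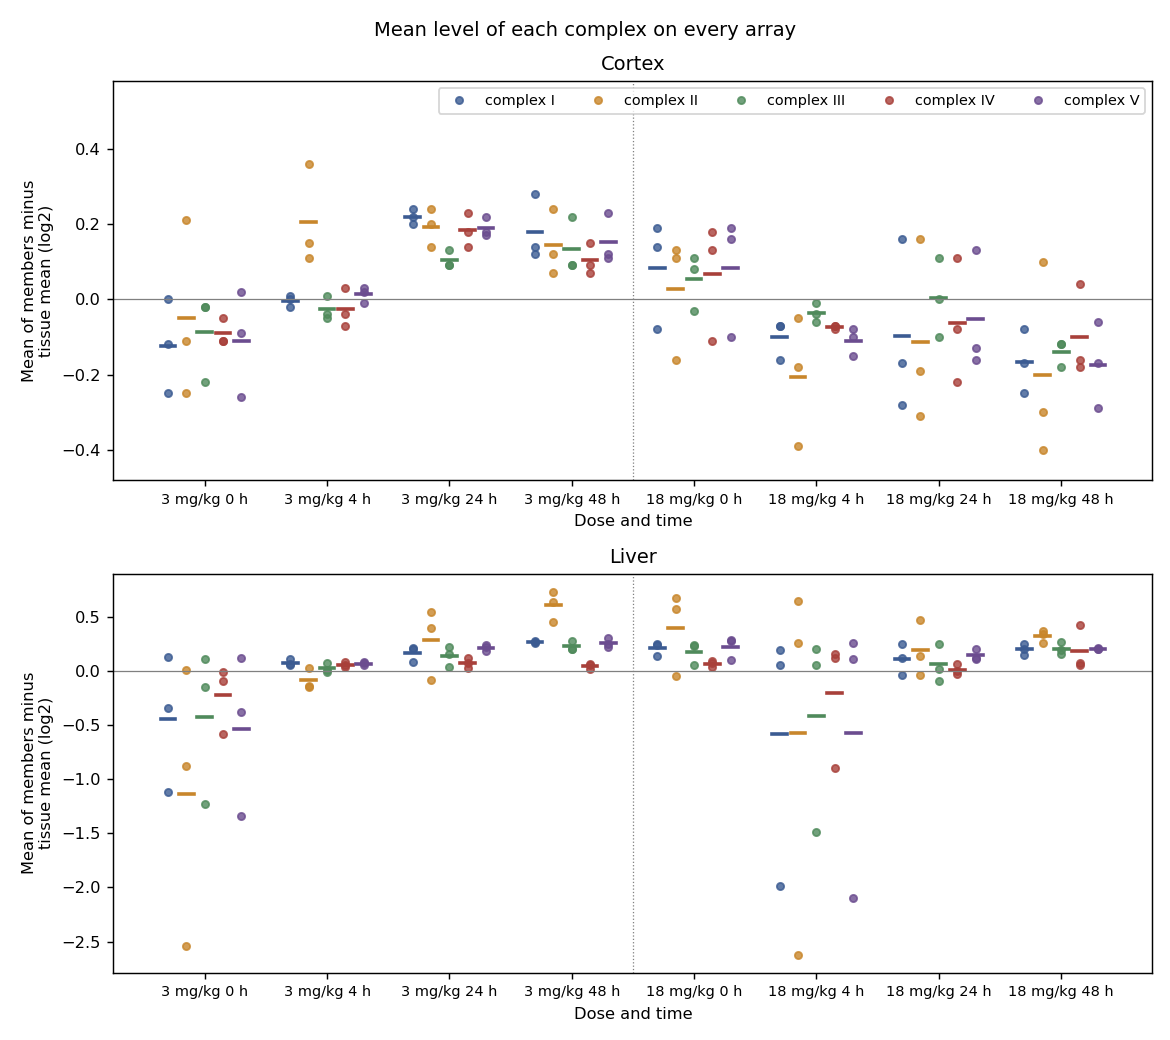
Mean over the members of each complex of the log2 level minus that gene's tissue mean, for every array (points) with group means (bars), by dose and time. In cortex all 5 complexes start lowest among the 3 mg/kg groups and lie below 0 at 4 and 48 h after 18 mg/kg; in liver single arrays of the 3 mg/kg 0 h and 18 mg/kg 4 h groups stand far below the rest.

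Whether the time courses differed between the doses was tested gene by gene (limma moderated F test over the changes at 4, 24 and 48 h). In cortex no member passed (0.00322% of all probe sets did; smallest adjusted p 0.15), while 49 of 80 had an unadjusted p under 0.05 (16.7% of all probe sets). The change at 18 mg/kg minus that at 3 mg/kg had a median of -0.30, -0.42 and -0.50 over the members at 4, 24 and 48 h. The cortex count of members that passed the adjusted threshold rested on single arrays. It was 5 without the third array of the 3 mg/kg 0 h group and 17 without the third of the 18 mg/kg 0 h group. It was 20 without the first at 24 h after 18 mg/kg and 13 without the second at 48 h after 18 mg/kg. Leaving out 18 mg/kg 0 h array 3 gave 9 called members at 48 h after 18 mg/kg, leaving out 48 h array 1 gave 1 and array 2 gave 10, and leaving out 3 mg/kg 0 h array 3 gave 4 at 24 h after 3 mg/kg. The share of all probe sets called in these refits is not given, so their counts do not set the members apart.

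The actin gap moved with these groups. The arrays carry actin control probe sets at the 3' and 5' ends, and labelling starts at the poly(A) tail, so a wider 3' minus 5' gap is commonly read as shorter RNA. Cortex group means of the gap were 2.89, 2.09, 2.09 and 2.34 (log2) after 0, 4, 24 and 48 h for 3 mg/kg, and 2.65, 3.66, 3.30 and 3.98 for 18 mg/kg. The gap thus narrowed where the members lay above 0 h and widened where they lay below it. The 10 cortex arrays with the widest gaps (3.18 to 4.61) had member means of -0.24 to -0.07 relative to the tissue mean, and the other 14 arrays (1.65 to 2.95) had -0.05 to 0.23. All 10 came from the 18 mg/kg groups or the 3 mg/kg 0 h group, so this split cannot separate the gap from dose and time. With the gap as a covariate in the same fit the 6 median changes were 0.04, 0.19 and 0.18 at 3 mg/kg and -0.05, -0.06 and -0.05 at 18 mg/kg, with 0 members called.

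**Figure D3:**
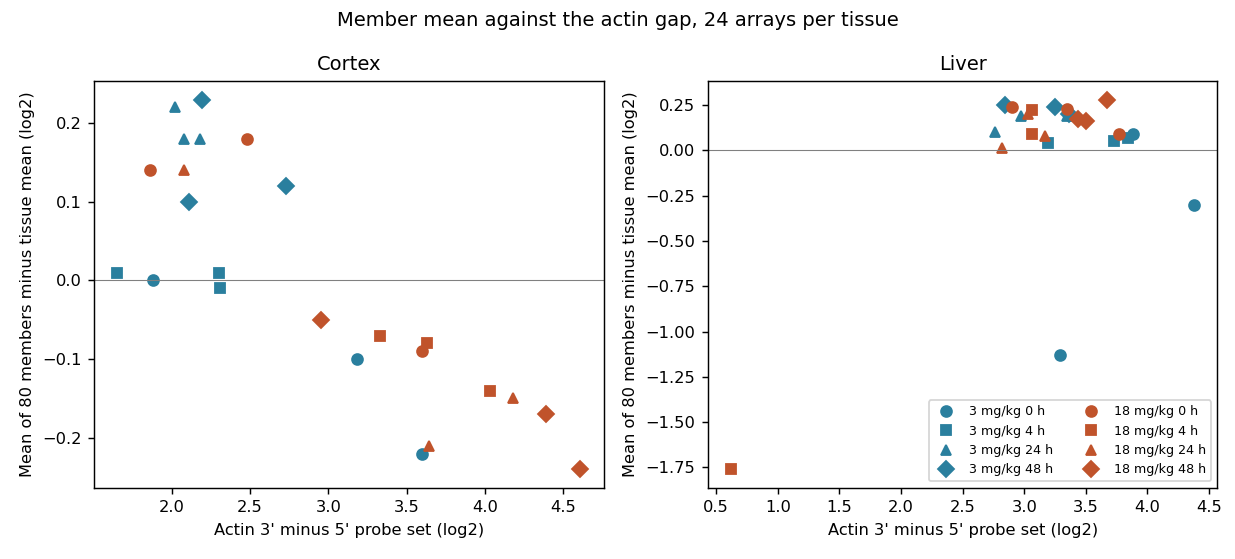
Mean of the 80 members minus the tissue mean (y, log2) against the actin 3' minus 5' gap (x, log2) on each of 24 arrays per tissue; colours are doses and symbols times. Cortex arrays with a gap of 3.18 or more all lie at -0.07 or lower; in liver a single array at a gap of 0.62 lies at -1.76.

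Cell type markers were looked at in the same groups. Neuron markers (8 of 8 measured) had group means of 10.20, 10.42, 10.22 and 10.17 at 0, 4, 24 and 48 h for 3 mg/kg. For 18 mg/kg they were 10.17, 10.09, 10.12 and 10.13. They were above 0 h at 4 and 24 h after 3 mg/kg and below it at all times after 18 mg/kg. Oligodendrocyte markers (5 of 6 measured) went from 11.72 at 0 h to 11.55 at 48 h for 3 mg/kg and from 11.58 to 11.51 for 18 mg/kg. Astrocyte markers (all 6 measured) had group means of 10.61, 10.65, 10.50 and 10.47 at 0, 4, 24 and 48 h for 3 mg/kg and 10.53, 10.71, 10.65 and 10.73 for 18 mg/kg. They were thus lower than at 0 h where the members lay above it at 24 and 48 h, and higher where the members lay below it. Erythrocyte markers (3 of 6 measured) had group means of 8.90 to 9.02 for 3 mg/kg and 8.62 to 8.64 for 18 mg/kg, 0 h included. The part of these lists in the result was not tested. Striatal markers (7 measured), which mark tissue beneath the cortex, were lowest in the 3 mg/kg 0 h group (7.69 to 9.28 by array) against 8.89 to 10.15 elsewhere in cortex. Hepatocyte markers (7 of 7 measured) lay between 4.84 and 11.02 on cortex arrays, and were highest at 48 h after 18 mg/kg (5.17 to 11.02). Their part in the member changes was not tested.

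The slope of each member on the gap was then taken between arrays of the same group, so that dose and time did not enter. In cortex 39 of 80 members fell as the gap widened and 1 rose, against 13.4% of all probe sets that fell and 12.8% that rose. The median slope was -0.12 log2 per log2 unit of gap over the members and 0.01 over all probe sets. Members called lower were 22 of 35 in complex I, 3 of 4 in complex II, 3 of 8 in complex III, 5 of 17 in complex IV and 6 of 16 in complex V. The count was 24 without the first array at 24 h after 18 mg/kg, with the share of all probe sets in that refit not given.

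Sdhc had the steepest slope, -0.49 ± 0.06 (adjusted p 7e-06), followed by Atp5mg at -0.46 ± 0.05 (adjusted p 6e-06). In the 3 mg/kg 0 h group, Sdhc read 10.70, 10.56 and 11.32 on arrays with gaps of 3.18, 3.60 and 1.88. In the 18 mg/kg 0 h group it read 11.14, 11.11 and 10.53 at gaps of 2.48, 1.86 and 3.60. In both groups, the widest gap went with the lowest Sdhc. Over the mean of all members, the widest-gap array of a group was its lowest in 5 of 8 cortex groups, and by complex in 4 (I), 7 (II), 6 (III), 1 (IV) and 6 (V) of 8.

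Steep slopes in complex I were those of Ndufb8 (-0.41 ± 0.06), the core iron-sulphur subunit Ndufv2 (-0.38 ± 0.05), Ndufc1 (-0.38 ± 0.05) and Ndufa3 (-0.37 ± 0.06). Sdhb, the iron-sulphur subunit of complex II, had -0.32 ± 0.05, and Uqcrfs1, the Rieske protein of complex III, -0.26 ± 0.04, both called. Ndufb7 was the member that rose, 0.15 ± 0.05 (adjusted p 0.025). Ndufs1 (0.10 ± 0.05), Cox7a1 (0.14 ± 0.06), Atp5f1b (0.05 ± 0.04) and the flavin subunit Ndufv1 (0.04 ± 0.05) had slopes above 0 that did not pass. Atp5mg, Ndufa3 and Ndufb8 thus had both large changes against 0 h and steep slopes, and Ndufs1 and Cox7a1 had the opposite sign in both. Other members named above had shallow slopes: -0.11 ± 0.03 for Cyc1 (called), and -0.08 ± 0.05 for Cox6b2 and 0.00 ± 0.04 for Atp5f1c (neither called). The part of the gap in the changes was not tested beyond the fits with the gap as a covariate.

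**Figure D4:**
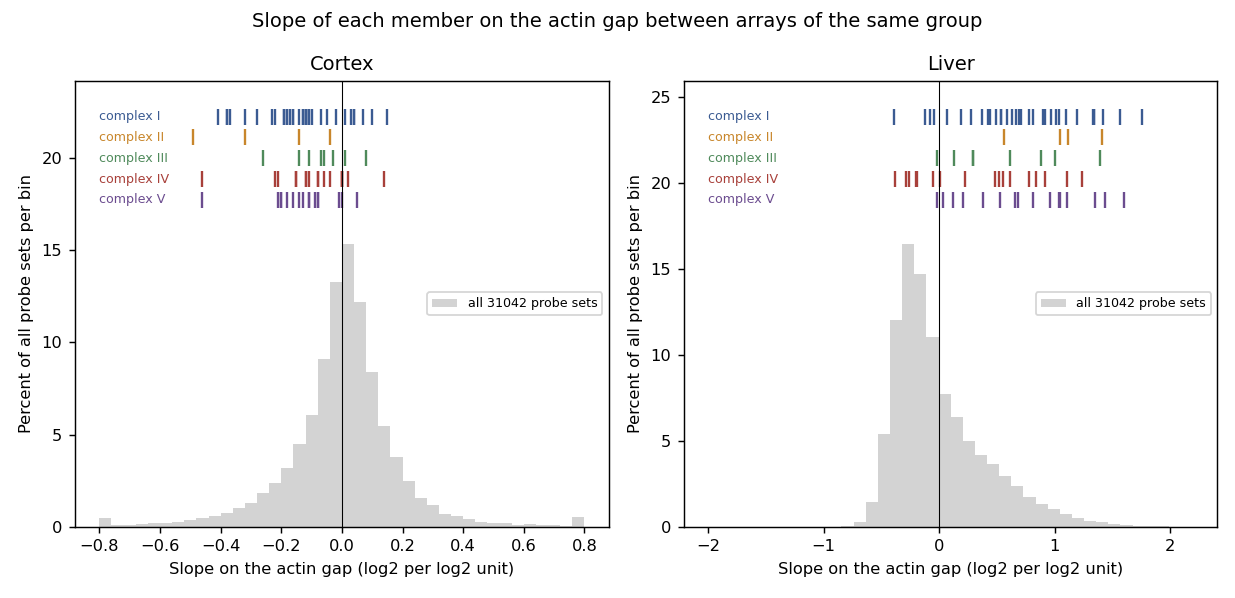
Slope of each member on the actin gap between arrays of the same group (ticks, by complex) above the distribution of all 31042 probe sets (grey, percent per bin; values beyond the axis are in the end bins). Cortex members centre on -0.12 and liver members on 0.65, where the liver value rests on a single array.

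In liver the members' values turned on 2 arrays with a narrow spread of log2 values. The second 3 mg/kg 0 h array had an SD of 1.492 over all probe sets and the first 18 mg/kg 4 h array 1.383, against 1.824 to 2.082 on the other 22. The mean of the members on these arrays lay at -1.13 and -1.76 relative to the tissue mean, and the groups of both ranged up to 0.09 and 0.22. With them, the median member changes were 0.48, 0.55 and 0.60 at 4, 24 and 48 h after 3 mg/kg and -0.58, -0.06 and 0.01 after 18 mg/kg. Without them the medians were 0.11, 0.24 and 0.28, and -0.04, -0.06 and 0.01. The first 3 mg/kg 0 h array, next narrowest at 1.824, stayed in that fit. It had a member mean of -0.30 and the widest liver actin gap (4.38), so the 0 h level there still rested partly on a low array. Quantile normalisation gave 0.17, 0.18 and 0.17 after 3 mg/kg and -0.15 at 4 h after 18 mg/kg. With the actin gap as a covariate the 18 mg/kg medians were 0.01, 0.14 and -0.12, so their signs turned at all 3 times. Complex II had the largest medians with all arrays, 1.05, 1.53 and 1.89 after 3 mg/kg.

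At 48 h after 3 mg/kg, 7 of 80 members were called, all higher. That is 8.75% of the members, near the background of 9.34% of all probe sets called (6% higher and 3.33% lower), so the calls do not set the members apart. Without adjustment 29 had p under 0.05, against 32% of all probe sets. They were the complex I accessory subunits Ndufb4, Ndufb6, Ndufb8 and Ndufa1, the complex II flavoprotein Sdha, and the complex IV subunits Cox5b and Cox7b. Cox7b read 10.93, 8.89 and 12.36 at 0 h and 12.68, 12.62 and 12.76 at 48 h, a rise of 1.96 ± 0.50 (adjusted p 0.027). Sdha read 9.51, 7.83 and 10.45 at 0 h and 11.21, 11.12 and 11.10 at 48 h, a rise of 1.88 ± 0.47 (adjusted p 0.027). For both genes the second 0 h array was lowest, while the remaining 0 h arrays also lay below all 3 at 48 h.

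Without the 2 narrow arrays 8 members (10%) were called at 48 h after 3 mg/kg, all higher (2.83% of all probe sets were higher and 1.59% lower), and 4 of the 7 kept their call: Cox5b (0.86 ± 0.20), Cox7b (1.04 ± 0.29), Ndufb4 (0.87 ± 0.23) and Sdha (1.16 ± 0.31). The others were Ndufb10, Ndufv3, Atp5pb (subunit b of the ATP synthase stalk) and Atp5pd (subunit d). The 0 h group of this fit held the first array, at a member mean of -0.30, and the third, at 0.09. Starting from all arrays, the count was 28 without 0 h array 3 and 0 without 0 h array 2 or without any single array of the 48 h group. The share of all probe sets called in these refits is not given, so the 28 does not set the members apart. Quantile normalisation of the deposited values gave 5 higher and 1 lower, and setting the group against both 0 h groups pooled gave 0. With the same array weighting 33, 39 and 44 members were called at 4, 24 and 48 h after 3 mg/kg, against 32.2%, 34.7% and 42.7% of all probe sets.

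In the other liver comparisons no member was called, against 0.0226% and 0% of all probe sets at 4 and 24 h after 3 mg/kg and 0.0258%, 0% and 0.0966% at 4, 24 and 48 h after 18 mg/kg. Unadjusted, 12 and 22 members had p under 0.05 at 4 and 24 h after 3 mg/kg (14.2% and 20% of all probe sets) and 27, 0 and 0 after 18 mg/kg (11.4%, 2.43% and 1.67%). Without 0 h array 3, the counts at 4 and 24 h after 3 mg/kg were 9 and 18. Shares of all probe sets are not given for these or the other counts here with an array left out. The dose test gave 0 members (0.00966% of all probe sets; 5 members unadjusted, against 9.54% of all; 2 called without 3 mg/kg 0 h array 3). The 0 h groups of both arms differed in 0 members (0% of all probe sets; 25 unadjusted, against 21.4% of all; 22 called without that array).

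Averaged over the 3 later times in liver with all arrays, the highest members at 3 mg/kg were Ndufb10 (1.60), Sdhb (1.78), Uqcrfs1 (1.35), Cox7b (1.78) and Atp5pb (1.70) in complexes I to V, and the lowest Ndufa3 (-0.30), Sdhd (0.87), Uqcrc1 (-0.24), Cox5a (-0.39) and Atp5f1e (-0.07). At 18 mg/kg the highest were Ndufs4 (0.26), Sdha (-0.05), Uqcr10 (0.02), Cox8b (0.66) and Atp5mk (0.01), and the lowest Ndufa11 (-0.72), Sdhb (-0.70), Cyc1 (-0.52), Cox4i1 (-0.56) and Atp5f1d (-0.72). Several of these genes, and most of the sizes, differed without the 2 narrow arrays. The highest at 3 mg/kg were then Ndufb10 (0.96), Sdhb (0.94), Uqcr11 (0.45), Cox7b (0.86) and Atp5mg (0.78), with Uqcrfs1 at 0.14 and Atp5pb at 0.62, and the lowest Ndufb2 (-0.19), Sdhd (0.35), Uqcrc1 (-0.23), Cox5a (-0.38) and Atp5f1d (-0.11). At 18 mg/kg the highest were then Ndufs4 (0.23), Sdha (0.11), Uqcrc2 (0.13), Cox8b (0.54) and Atp5pf (0.09), and the lowest Ndufb8 (-0.31), Sdhb (-0.23), Cyc1 (-0.26), Cox7a1 (-0.32) and Atp5f1d (-0.37), with Ndufa11 at -0.15 and Cox4i1 at -0.13.

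Sdhb, the succinate dehydrogenase iron-sulphur subunit, shows how the arrays lay. It read 9.66, 7.87 and 11.11 at 0 h and 11.77, 11.52 and 11.87 at 48 h after 3 mg/kg, and 7.21, 11.14 and 11.64 at 4 h after 18 mg/kg. Atp5mg read 6.51, 11.91 and 12.20 at 4 h after 18 mg/kg against 12.31, 12.18 and 12.28 at 0 h. In both genes the low value of the 4 h group was the narrow array alone.

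Liver slopes on the actin gap ran the other way from those of cortex and rested on the same array. That array, the first at 4 h after 18 mg/kg, read 6.85 on the actin 3' probe set and 6.24 on the 5' probe set. The other liver arrays read 8.92 to 10.74 on the 3' probe set. The gap of 0.62 thus came with a low 3' value and cannot be read as longer RNA. With all arrays 57 members rose and 2 fell (Ndufa4l2, -0.39 ± 0.13, and Cox7a1, -0.29 ± 0.12), against 17.8% and 24% of all probe sets, and the median was 0.65 against -0.11. Ndufs3, Atp5mg and Ndufa11 were steepest at 1.76, 1.60 and 1.57. Without the first 18 mg/kg 4 h array, whose gap was 0.62, 0 members rose and 0 fell (0% and 0% of all probe sets), the median was 0.30, and Atp5mg had -0.04. Quantile normalisation gave 35 higher and 10 lower with all arrays.

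The muscle isoforms of complex IV stood out on a liver array of the 18 mg/kg 48 h group. Cox6a2, Cox8b and Cox7a1 are the heart and skeletal muscle forms of their subunits. Cox6a2 read 5.50, 7.88 and 5.25 in that group and 5.31, 5.51 and 5.31 at 0 h, and Cox8b 4.79, 7.73 and 4.70 against 4.47, 4.89 and 4.91. Only the second array was high, and the group differences were 0.83 ± 0.40 and 0.98 ± 0.51 (adjusted p of 1 each). On that array the mean of the 6 muscle markers was 7.21, against 4.68 to 5.84 on the other 23 liver arrays; Acta1 (skeletal actin) read 9.94 and Ckm (muscle creatine kinase) 8.55. Cox7a1 read 6.52 there, within the liver range.

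Cortex was set against liver over all 48 arrays, each tissue as the mean of its 8 groups and each gene on the same probe set. Cortex arrays with high hepatocyte marker means were kept. These were the first at 4 h after 3 mg/kg (10.08) and the second at 4 h after 18 mg/kg (9.84). At 48 h after 18 mg/kg they were the second (10.51) and the third (11.02). Of 80 members, 41 were higher in cortex and 13 lower, against 34.5% and 54.5% of all probe sets, and the median difference was 0.27 (log2) against -0.26. Without the 2 narrow arrays 41 were higher and 21 lower with a median of 0.16, median centring gave 33 and 15 with 0.17, and the 0 h groups alone 36 and 7 with 0.44. Over all probe sets the medians in these refits were -0.23, -0.36 and -0.26. The shares of all probe sets called in them are not given, so these counts do not set the members apart. In the fit with all arrays, complex IV had 13 of 17 higher and 2 lower with a median of 0.63. The remaining complexes had 6 of 8 and 1 (III), 8 of 16 and 1 (V), 1 of 4 and 0 (II) and 13 of 35 and 9 (I). Values are relative to the other transcripts of an array and say nothing of the amount of mitochondria per cell.

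**Figure D5:**
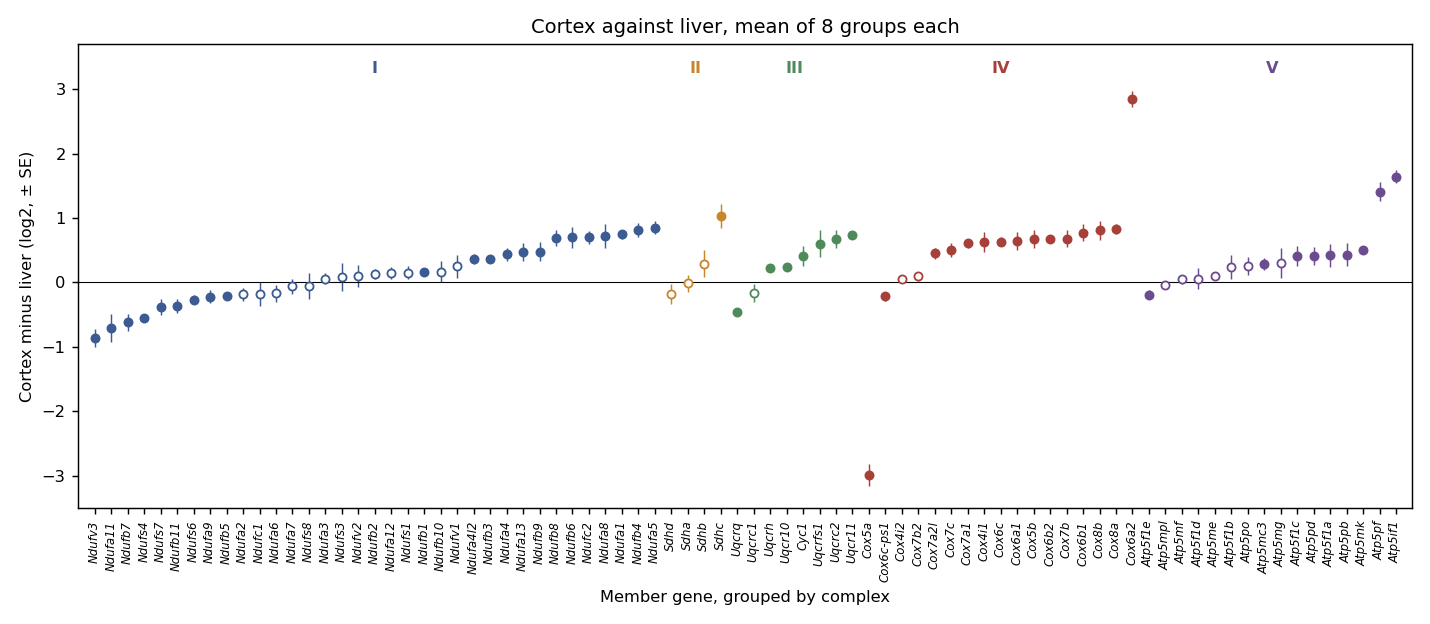
Cortex minus liver (log2, points with SE) for the 80 members, ordered within each complex; filled points passed the threshold. Cox6a2 stands highest at 2.85 and Cox5a lowest at -2.99, and 15 of 17 complex IV members lie above 0.

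Isoform pairs of complex IV were compared between the tissues. Cox6a2, the muscle form, had a median of 8.32 on cortex arrays (7.77 to 8.91) and 5.41 on liver arrays (4.97 to 7.88), a difference of 2.85 ± 0.12 (adjusted p 1.1e-23), while its ubiquitous partner Cox6a1 differed by 0.64 ± 0.14 (adjusted p 8.2e-05). The highest liver value was that of the array with muscle markers. Liver means of Cox6a2 (5.50), Cox6b2 (5.28) and Cox8b (5.04) lay in the range of the neuron marker means on liver arrays (4.77 to 5.86). No detection call was used, so these liver levels may be background and the differences of these 3 genes cannot be read as exact folds. Cox8b and Cox8a differed by 0.81 ± 0.15 and 0.83 ± 0.08, and the testis form Cox6b2 and its partner Cox6b1 by 0.68 ± 0.05 and 0.77 ± 0.13, all called higher in cortex. Cox4i2, the form known from lung and low oxygen, did not pass (0.06 ± 0.06), whereas Cox4i1 was higher by 0.63 ± 0.16. The means of Cox4i2 were 5.26 in cortex and 5.20 in liver, so it may be background in both tissues. Cortex means of Cox6b2 (5.96) and Cox8b (5.85) were low as well. Ndufa4, counted with complex I by its symbol but now known as a part of complex IV, was higher by 0.44 ± 0.10 and Ndufa4l2 by 0.36 ± 0.08.

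Cox5a was the lowest member, at a median of 7.48 in cortex (6.22 to 8.72) and 10.55 in liver (8.95 to 11.09), a difference of -2.99 ± 0.17 (adjusted p 2.4e-19). The array's other probe set for Cox5a, also paired with LOC100361008 and so not a member, had means of 12.68 in cortex and 12.61 in liver. The probe sets thus disagreed, and the Cox5a value belongs to a single probe set. After Cox6a2 the highest members were Atp5if1 (1.64 ± 0.10), Atp5pf (coupling factor 6 of the ATP synthase stalk, 1.41 ± 0.15) and Sdhc (1.03 ± 0.19). Atp5if1 had 2 dimmer probe sets that differed the other way, by -1.97 and -1.83. After Cox5a the lowest were Ndufv3 (-0.86 ± 0.14), Ndufa11 (-0.71 ± 0.22) and Ndufb7 (-0.62 ± 0.13), all of complex I; both probe sets of Ndufv3 were lower in cortex.

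Other genes of the pathway were counted from lists of assembly factors (41 of 46 measured), biogenesis regulators (19 of 19), the TCA cycle (13 of 17) and carriers (13 of 16). In cortex none of them was called in any comparison; at 24 h after 3 mg/kg their medians were 0.14, 0.10, 0.03 and 0.15, and at 48 h after 18 mg/kg -0.07, -0.01, -0.05 and 0.01. In liver at 48 h after 3 mg/kg, with all arrays, 9 assembly factors, 4 regulators, 3 TCA cycle genes and 1 carrier rose and 1 regulator fell, against 6% of all probe sets higher and 3.33% lower. Without the 2 narrow arrays 5 of 41 assembly factors, 1 of 19 regulators, 4 of 13 TCA cycle genes and 2 of 13 carriers rose and none fell, against 2.83% and 1.59%, and Atpaf1, Tfam, Suclg2 and Vdac3 were among them. With all arrays the genes that rose included Atpaf1, which assembles the ATP synthase head (1.46 ± 0.32, adjusted p 0.025), Tfam, which packs mitochondrial DNA (2.05 ± 0.50, adjusted p 0.026), Suclg2, a succinyl-CoA ligase subunit (2.82 ± 0.65, adjusted p 0.025), and the outer membrane channel Vdac3 (1.53 ± 0.45, adjusted p 0.041). In the other 5 liver comparisons none of the 4 lists had a called gene.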

How the data were processed

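RNA from 48 samples was labelled from an oligo(dT) primer, per the labels' protocols, and hybridised to Affymetrix rat arrays. The values are log2 expression per probe set as deposited by the authors; RMA and Partek are named in the submitters' processing notes, with no version. Affymetrix control probe sets (57) stayed out, which left 31042. For each tissue 1 limma model (limma 3.58.1, R 4.3.3) with 8 group means was fitted to all of them, with Benjamini-Hochberg adjustment and a threshold of 0.05. Gap slopes used the same group means plus the actin gap, and tissues were compared over group means. The fit was tested on simulated data. Figures used Python 3.11.15 and matplotlib 3.10.9.

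Members and gene lists were chosen with earlier results of these data known. Named genes were those called in any comparison, the extremes of each complex by dose arm and tissue, the extremes against the gap and between tissues, isoform pairs and a list of marker subunits. Ndufa2, Atp5f1d, Atp5f1e and the further steep slopes in cortex were named after their values were seen. Alternatives changed normalisation, filters, variance models, arrays and covariates. The number of arrays limits the precision.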

Additional observations from a re-analysis of the deposited data

Results flagged for a closer look

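The mean change of the members had opposite signs in the 2 dose arms on every array in some comparisons, each array being set against the 0 h mean of its own dose. These differences between doses in the mean were not tested, and the gene by gene test of the dose difference called 0 members in either tissue.

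In cortex, the mean change over all members at 18 mg/kg minus that at 3 mg/kg was -0.28 (log2) at 4 h and -0.49 at 48 h. At 4 h the difference was -0.31 for complex I, -0.49 for complex II, -0.15 for complex III, -0.21 for complex IV and -0.32 for complex V. At 48 h it was -0.55 for complex I, -0.42 for complex III, -0.36 for complex IV and -0.52 for complex V. The cortex actin gap differed between the same groups, with group means of 2.09 and 3.66 at 4 h and 2.34 and 3.98 at 48 h; its part in these differences was not tested beyond the fits with the gap as a covariate.

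In liver the difference was -1.31 for complex I at 4 h, -0.36 for complex IV and -0.83 for complex V at 24 h, and -1.82 for complex II and -0.81 for complex V at 48 h. All of these rest on the 3 mg/kg 0 h group, which holds an array of narrow spread at a member mean of -1.13, and the value at 4 h also on the 18 mg/kg array at -1.76. The 18 mg/kg changes themselves were small at 24 h (complex IV -0.06, complex V -0.08) and 48 h (complex II -0.08, complex V -0.02). The 3 mg/kg changes beside them were 0.30, 0.75, 1.74 and 0.79.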

How the results depend on the processing

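No called result was reversed, but medians in liver after 18 mg/kg changed sign: with the actin gap as a covariate from -0.58, -0.06 and 0.01 to 0.01, 0.14 and -0.12 at 4, 24 and 48 h, and at 48 h also to -0.01 with median centring, -0.19 with the GAPDH gap, and as low as -0.04 with 1 array left out. Array weights, whose estimation stopped before it converged, moved the most counts of called members (shares of all probe sets in the dose tests and between 0 h groups were 34.7% and 15.2% in cortex, 30.2% and 38.4% in liver): to 11, 39 and 38 in cortex at 4, 24 and 48 h after 3 mg/kg, 42 and 41 at 4 and 48 h after 18 mg/kg, 58 in the dose test and 36 between 0 h groups, and in liver to 33, 39 and 44 after 3 mg/kg, 34 in the dose test and 45 between 0 h groups. In cortex 1 probe set per gene gave 1 at 24 h after 3 mg/kg and 1 at 48 h after 18 mg/kg, where quantile normalisation, median centring and bright probe sets each gave 1 and arrays with a gap of at most 3 gave 7; at 4 h after 18 mg/kg no array met that limit, so no value exists. The actin gap as a covariate gave cortex medians of 0.19 at 24 h after 3 mg/kg and -0.05 at both 4 and 48 h after 18 mg/kg, and the GAPDH gap -0.03 at 48 h. In liver the actin covariate gave counts of 11, 54 and 57 after 3 mg/kg and 51 between 0 h groups, with medians of 1.07 at 24 h after 3 mg/kg and 0.01 at 4 h after 18 mg/kg. That fit uses the liver gap slopes, which called 57 members higher with the first 18 mg/kg 4 h array and 0 without it. Its counts without that array are not given, so they cannot be read as changes freed of RNA length. The GAPDH gap gave 29 at 48 h after 3 mg/kg and 9 between 0 h groups. The liver count at 48 h after 3 mg/kg was also 11 with bright probe sets, 4 with trend and robust variances and 0 with pooled 0 h groups. The liver median at 4 h after 18 mg/kg was -0.04 without arrays of SD under 1.5. The liver slope count was 17 with the GAPDH gap, 38 without group means and 0 without arrays of SD under 1.5, an alternative added after seeing the data. Shares of all probe sets are given here for array weights alone, so the other counts do not set the members apart. The cause of these shifts was not tested.

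Leaving out 1 array at a time gave counts of 0 to 4 in cortex at 24 h after 3 mg/kg, 0 to 10 at 48 h after 18 mg/kg, 0 to 20 in the cortex dose test and 24 to 45 for the cortex slope, with a median of -0.26 to -0.09 at 24 h after 18 mg/kg. In liver it gave 0 to 9, 0 to 18 and 0 to 28 at 4, 24 and 48 h after 3 mg/kg, 0 to 2 in the dose test, 0 to 22 between 0 h groups and 0 to 62 for the slope, with a median of -0.89 to -0.04 at 4 h after 18 mg/kg. The shares of all probe sets called in these refits are not given, so the counts do not set the members apart.

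Same-numbered arrays of different groups in a tissue did not deviate together (median correlation -0.04 in cortex and 0.01 in liver). Cortex and liver arrays of the same dose, time and number had a median correlation of 0.06 (-0.10 to 0.20). Low correlations cannot exclude that such arrays share an animal, and the tissue comparison took all 48 arrays as separate. With a replicate block the liver count at 48 h after 3 mg/kg was 11, the slope counts were 42 in cortex and 58 in liver, and 54 members differed between the tissues. The shares of all probe sets called with that block are not given, so these counts do not set the members apart. With 3 arrays a group, small differences could not be resolved, above all in liver, where the SD of the member mean between arrays was 0.453 against 0.102 in cortex.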
